A study of Neurospora crassa OR74A with 15 samples.

Results

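The conidiation genes of Neurospora crassa described here are 6 of the 9733 loci measured: eas (NCU08457), con-6 (NCU08769), con-8 (NCU09235), con-10 (NCU07325), ccg-1 (NCU03753) and fl (NCU08726). They were chosen as a named set for their known role in asexual spore formation, with earlier results of these data known. All 6 were among the 8700 loci tested. RNA was sequenced from mycelia of FGSC 2489, a wild-type strain, in 15 libraries. Conidia 10 days old were grown in light with shaking for 16 h on 2% sucrose, and the washed mycelia were then kept for 4 h on a new carbon source or on none. The groups were pectin at 1% (n = 3), orange peel powder at 1% (n = 2), xylan at 2% (n = 1), Avicel, a microcrystalline cellulose, at 2% (n = 3), no carbon source (n = 3) and sucrose at 2% (n = 3). Every culture, the sucrose one included, had the same pregrowth and the same change of medium.

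When mycelium of N. crassa meets air, light or a lack of nutrients, it raises aerial hyphae that bud off chains of orange asexual spores, the conidia. The transcription factor FL, a zinc cluster protein, is required for the buds to form and acts on eas, whose product is the hydrophobin that coats conidia with water-repellent rodlets. The con genes were cloned as transcripts that accumulate during conidiation, and ccg-1, also named grg-1, was cloned as a gene that glucose represses and that the circadian clock controls. No conidia were counted in these data, and the values below are RNA levels in whole mycelium. In such bulk samples more cells of a type and more RNA per cell cannot be told apart.

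Each of the 6 loci had 1 transcript in the tables. On the contigs named there, which count bases from 1 as printed here, eas lay on 10.2 from 3571946 to 3572797, fl on 10.2 from 3805778 to 3809444, con-6 on 10.3 from 5205042 to 5205927, con-8 on 10.1 from 9463885 to 9465312, con-10 on 10.4 from 4364944 to 4365763 and ccg-1 on 10.5 from 2302672 to 2303443. The transcripts of the 5 structural genes were short, from 621 bases for ccg-1 to 1186 for con-8, and that of fl was 2985 bases long. The loci of eas and fl were separated by 232980 bases that held 33 other loci.

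Levels are the deposited FPKM, named for fragments per kilobase of transcript scaled to library size, and can be compared between genes. Summed over all loci, FPKM times kilobases exceeded the sum that scaling to all mapped fragments would give. The excess ran from 5.62 times in no-carbon replicate 1 to 10.3 times in sucrose replicate 3. How the values were scaled is not stated, so levels are read relative to each other and not as standard FPKM. Relative to the no-carbon mean, the sum of FPKM times length over all loci was 0.977 to 1.02 in the no-carbon libraries, 1.09 to 1.22 on pectin, orange peel, xylan and in Avicel replicates 2 and 3, 1.5 in Avicel replicate 1 and 1.46 to 1.79 on sucrose, so the scale itself differed between groups. Mapped sequence, computed from coverage, was 518 megabases in Avicel replicate 1 and 515 in sucrose replicate 1, against 2146 to 6025 in the other 7 libraries that carry coverage. Results that turn on these 2 shallow libraries are also given without them. The libraries on pectin, orange peel and xylan came from this study and the other 9 from an earlier one, per the labels. Carbon source and source of the library cannot be told apart wherever a group of one set is compared with a group of the other. Avicel, no carbon and sucrose belong to a single source.

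All 6 genes had their highest median level without carbon, and 5 had their lowest on sucrose. Against no carbon, all 6 fell on sucrose, 5 fell on pectin, 5 fell on orange peel and 0 passed the test on Avicel. Of all genes tested, 34.2%, 10.9%, 10.7% and 2.33% were called lower in these comparisons. The count on Avicel was higher under several other settings, given below. Together the 6 genes took 3.90% to 4.80% of the summed FPKM times length without carbon and 0.756% to 1.54% on Avicel. The share was 0.153% to 0.414% on pectin, 0.154% and 0.251% on orange peel, 0.265% on xylan and 0.00428% to 0.0124% on sucrose. In this sum the no-carbon libraries did not overlap those of any other group. Most of the sum in every library came from eas and ccg-1, which alone took 3.71% to 4.68% without carbon. Taken singly, con-6, con-8 and fl did overlap between no carbon and Avicel.

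**Figure D1:**
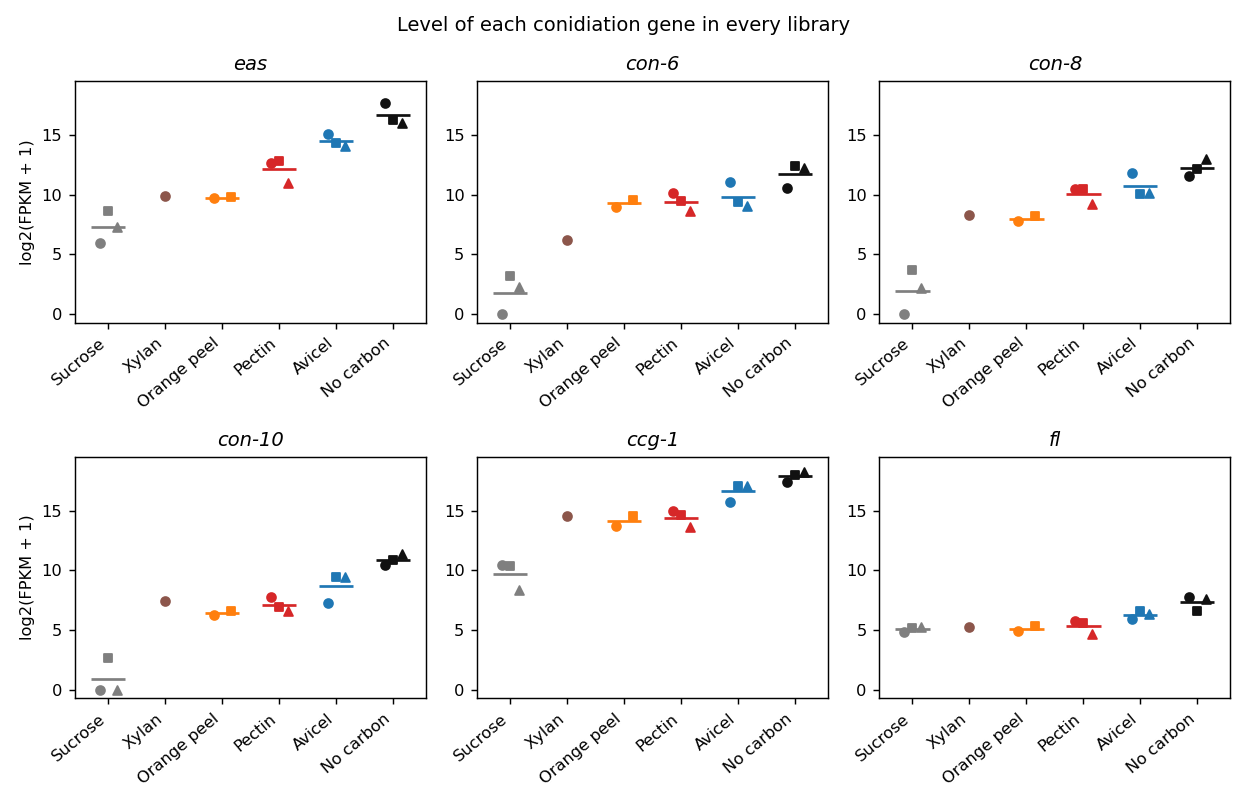
The 6 panels plot log2(FPKM + 1) of each gene in every library, with circles for replicate 1, squares for replicate 2, triangles for replicate 3 and a line for the mean of groups with at least 2 libraries. Levels of eas and ccg-1 without carbon sit at the top of the scale, con-6, con-8 and con-10 lie near 0 on sucrose, and fl keeps within 24.8 and 223 FPKM throughout.

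The hydrophobin gene eas covered the widest range of levels among the genes with no library listed at 0. Without carbon it measured 206272, 78251 and 65514 FPKM, which made it the most abundant of the 9733 loci in replicate 1 and the next most abundant in replicates 2 and 3. On Avicel it measured 34620, 20371 and 17326 FPKM. The lowest no-carbon library was higher than the highest Avicel library. On pectin it measured 6245, 7201 and 2025 FPKM, on orange peel 818 and 891 FPKM, and on xylan 969 FPKM. The sucrose libraries held 62.5, 388 and 155 FPKM. No group of eas values overlapped another, and the order of medians was no carbon, Avicel, pectin, xylan, orange peel and sucrose.

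The glucose-repressed gene ccg-1 was the other very abundant transcript. It measured 171706, 255469 and 301939 FPKM without carbon and was the most abundant locus in replicates 2 and 3 of that group. On Avicel it measured 52427, 135310 and 138708 FPKM, again the most abundant locus in replicates 2 and 3. Pectin gave 32776, 24851 and 12876 FPKM, orange peel 13520 and 23667 FPKM, and xylan 24537 FPKM. The orange peel and xylan values lay within the pectin range, below all Avicel libraries and above the 1411, 1327 and 328 FPKM of the sucrose libraries. Even its lowest sucrose value was well measured, where con-6, con-8 and con-10 were at or near 0.

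The con genes were intermediate in level. For con-6, the no-carbon libraries held 1516, 5383 and 4879 FPKM and the sucrose libraries 0, 8.01 and 3.85 FPKM. Pectin gave 1158, 692 and 400 FPKM, orange peel 502 and 770 FPKM, and Avicel 2082, 654 and 517 FPKM. Pectin, orange peel and Avicel overlapped for con-6, and neighbours among them in the order of medians did not differ beyond their spread. The xylan library, at 74.3 FPKM, was below every library of those 3 groups and above every sucrose library, and as a single library it carries no test.

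For con-8, the no-carbon libraries held 3029, 4498 and 7958 FPKM and the sucrose libraries 0, 12.2 and 3.47 FPKM. Pectin gave 1432, 1391 and 607 FPKM, orange peel 221 and 291 FPKM, xylan 308 FPKM, and Avicel 3628, 1076 and 1138 FPKM. Both orange peel libraries and the xylan library were below all pectin and Avicel libraries. Avicel replicate 1 was higher than no-carbon replicate 1, so those groups overlapped.

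For con-10, which encodes a small protein abundant in conidia, the no-carbon libraries held 1400, 1850 and 2575 FPKM. Avicel gave 158, 699 and 680 FPKM, pectin 213, 118 and 94.1 FPKM, orange peel 75.7 and 96.9 FPKM, and xylan 168 FPKM. All no-carbon libraries were above all others, and pectin overlapped Avicel only through the shallow Avicel replicate 1. On sucrose con-10 was listed at 0 in replicates 1 and 3 and at 5.38 FPKM in replicate 2, which corresponds to a mean coverage of 1.28-fold. Sucrose coverage of con-6 and con-8 in the libraries not listed at 0 was 0.725-fold to 2.90-fold, so their order on sucrose cannot be read at this depth.

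The regulator fl was the least abundant of the 6 in every group other than sucrose. It measured 223, 94.0 and 198 FPKM without carbon and 58.8, 96.7 and 81.2 FPKM on Avicel. Pectin gave 52.6, 46.4 and 24.8 FPKM, orange peel 29.0 and 39.9 FPKM, xylan 37.5 FPKM and sucrose 28.1, 36.0 and 37.6 FPKM. These last 4 conditions overlapped, all Avicel libraries were above them, and no carbon overlapped Avicel through its replicate 2. The largest ratio of mean levels without carbon over another group was 5.06 for fl, against sucrose, where eas had a ratio of 578 and ccg-1 of 238.

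Comparisons against no carbon ask how the genes differ when a carbon source is supplied, and all 4 share the same 3 no-carbon libraries. Each was tested with limma on log2(FPKM + 1), and a gene was called where the adjusted p was below 0.05 and the change was 1 log2 unit or more. On sucrose, all 6 genes fell, where 34.2% of the 8700 genes were called lower. The log2 fold change was -9.34 (SE 0.66, adjusted p = 1.61e-07) for eas, -8.12 (SE 0.61, adjusted p = 2.68e-07) for ccg-1 and -2.22 (SE 0.36, adjusted p = 0.000137) for fl. For con-6, con-8 and con-10 the adjusted p values were 4.14e-07, 3.03e-07 and 1.68e-07, and no fold is given because 1, 1 and 2 of their sucrose libraries were listed at 0. All 6 remained called lower when any single library was left out.

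On pectin, 5 of the 6 genes fell, where 10.9% of all genes were called lower, and every pectin library was below every no-carbon library for all 6, as for 33.3% of all genes. The changes were -4.50 (SE 0.66, adjusted p = 0.000388) for eas, -3.81 (SE 0.71, adjusted p = 0.00180) for con-10, -3.43 (SE 0.61, adjusted p = 0.00134) for ccg-1, -2.0 (SE 0.36, adjusted p = 0.00128) for fl and -2.32 (SE 0.79, adjusted p = 0.0388) for con-6. For con-8 the change was -2.16 (SE 0.79) with an adjusted p of 0.0503. The median change of the 6 genes was -2.88, and that of all genes tested was -0.12. The call of con-6 was lost without pectin replicate 2 (adjusted p = 0.0858) or 3 (adjusted p = 0.135), without no-carbon replicate 2 (adjusted p = 0.113) or 3 (adjusted p = 0.122), and narrowly without either orange peel library. It was also lost with a pseudocount of 0.1 (adjusted p = 0.196) and with no filter (adjusted p = 0.0660). With both shallow libraries left out, con-8 passed (adjusted p = 0.00318).

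On orange peel, 5 of the 6 genes fell, where 10.7% of all genes were called lower, and every orange peel library was below every no-carbon library for all 6, as for 39.8% of all genes. The change of eas was -6.90 (SE 0.74, adjusted p = 6.29e-05), the lowest of all 8700 genes in this comparison. The changes were -4.44 (SE 0.80, adjusted p = 0.00184) for con-10, -4.23 (SE 0.88, adjusted p = 0.00419) for con-8, -3.73 (SE 0.69, adjusted p = 0.00213) for ccg-1 and -2.21 (SE 0.40, adjusted p = 0.00186) for fl. For con-6 the change was -2.46 (SE 0.89) with an adjusted p of 0.0521, and it passed with both shallow libraries left out (adjusted p = 0.00508). The median of the 6 changes was -3.98, against -0.14 for all genes. Without orange peel replicate 1, con-8 missed the threshold (adjusted p = 0.0508), and under quantile normalization ccg-1 did (adjusted p = 0.0516).

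On Avicel, 0 of the 6 genes passed limma's test against no carbon, where 2.33% of all genes were called lower. At an unadjusted p under 0.05, 4 of the 6 genes and 15.3% of all genes were lower. The changes were -2.15 (SE 0.66, adjusted p = 0.0644) for eas, -2.16 (SE 0.71, adjusted p = 0.0842) for con-10, -1.05 (SE 0.36, adjusted p = 0.0914) for fl, -1.94 (SE 0.79, adjusted p = 0.154) for con-6, -1.25 (SE 0.61, adjusted p = 0.233) for ccg-1 and -1.54 (SE 0.79, adjusted p = 0.255) for con-8. The median of the 6 changes was -1.74, against -0.15 for all genes. All Avicel libraries were below all no-carbon libraries for eas, con-10 and ccg-1, as for 20.6% of all genes, and the groups overlapped for con-6, con-8 and fl. With both shallow libraries left out, 3 genes passed, eas, con-6 and con-8, where 2.91% of all genes were called lower. Under quantile normalization 4 passed, where 2.90% of all genes were lower, and with every library scaled to the same sum of FPKM times length, an alternative chosen after seeing the data, 4 passed, where 8.18% were.

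**Figure D2:**
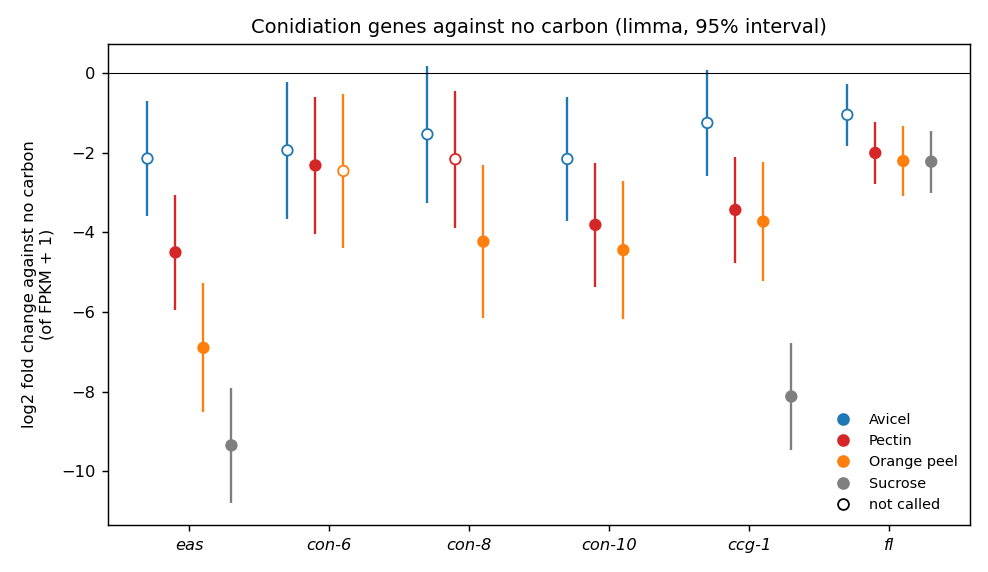
Points give the limma log2 fold change of each gene against no carbon on Avicel, pectin, orange peel and sucrose, and bars its 95% interval. Filled points passed the test, open points did not, and no sucrose point is drawn for con-6, con-8 and con-10, whose sucrose libraries include values listed at 0. The points step down from Avicel to pectin and orange peel for each structural gene and reach -9.34 on sucrose for eas, while those of fl on pectin, orange peel and sucrose lie between -2.0 and -2.22.

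Against sucrose, whose 3 libraries the next comparisons share, fl differed in its calls from the 5 structural genes on pectin and orange peel. On Avicel all 6 genes rose, where 30.3% of all genes were called higher: eas by 7.20 (SE 0.66, adjusted p = 1.53e-06), ccg-1 by 6.87 (SE 0.61, adjusted p = 1.19e-06) and fl by 1.18 (SE 0.36, adjusted p = 0.0119) on the log2 scale. The call of fl was lost under quantile normalization (adjusted p = 0.137). On pectin 5 genes rose, where 26.6% of all genes did, with eas at 4.84 (SE 0.66, adjusted p = 6.60e-05) and ccg-1 at 4.68 (SE 0.61, adjusted p = 4.65e-05). The change of fl was 0.22, with a 95% interval from -0.56 to 0.99, and it was -0.41 under quantile normalization. On orange peel the same 5 genes passed, where 25.4% of all genes did, with eas at 2.45 (SE 0.74, adjusted p = 0.0151) and ccg-1 at 4.39 (SE 0.69, adjusted p = 0.000225). The call of eas there was lost without orange peel replicate 1 (adjusted p = 0.0634) or 2 (adjusted p = 0.0800). The change of fl was 0.02, with a 95% interval from -0.85 to 0.88, and it was -0.70 under quantile normalization. The adjusted p values of con-6, con-8 and con-10 against sucrose were between 1.28e-06 and 0.000132 in these 3 comparisons.

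Pectin and orange peel were also compared with Avicel, with which they share no source. On pectin eas fell by 2.36 (SE 0.66, adjusted p = 0.0202) and ccg-1 fell by 2.18 (SE 0.61, adjusted p = 0.0200) on the log2 scale, 2 of the 6 genes, where 6.85% of all genes were called lower. Without pectin replicate 3 both calls were lost (adjusted p = 0.0930 for eas and 0.0904 for ccg-1). The call of eas was also lost without Avicel replicate 1 (adjusted p = 0.0520), and that of ccg-1 without Avicel replicate 2 (adjusted p = 0.0733) or 3 (adjusted p = 0.0713). On orange peel 3 of the 6 genes fell, with changes of -4.75 (SE 0.74, adjusted p = 0.000994) for eas, -2.69 (SE 0.88, adjusted p = 0.0484) for con-8 and -2.48 (SE 0.69, adjusted p = 0.0243) for ccg-1, where 6.33% of all genes were called lower. Of these calls only that of eas held with each library left out in turn, and with both shallow libraries left out 4 genes passed on pectin and 5 on orange peel, where 10.8% and 11.5% of all genes were then called lower.

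Between pectin and orange peel, a defined polysaccharide and a pectin-rich plant material, limma called 0 of the 6 genes, where 0.161% of all genes were called lower on orange peel. At an unadjusted p under 0.05, 2 of the 6 genes and 5.61% of all genes were lower on orange peel. For eas the change from pectin to orange peel was -2.40, with a 95% interval from -4.02 to -0.78 (adjusted p = 0.239). For con-8 it was -2.07, with an interval from -3.99 to -0.15 (adjusted p = 0.439). Both orange peel libraries were below all 3 pectin libraries for these genes, as for 22.6% of all genes, and pectin and orange peel overlapped for the other 4.

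**Figure D3:**
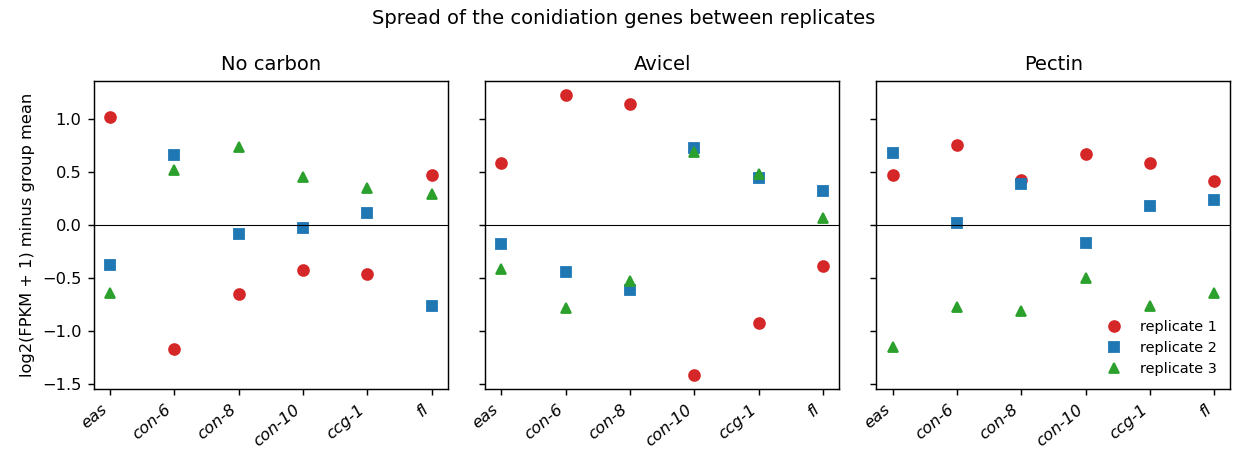
Each panel plots, for 1 group, the log2(FPKM + 1) of every library minus the mean of its group, gene by gene. Pectin replicate 3 is the lowest library for all 6 genes, while replicate 1 without carbon is the highest for eas and fl and the lowest for the other 4.

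The 6 genes did not vary together between replicates of every group. Pectin replicate 3 was the lowest of its group for all 6, from 0.301 of the mean of the other libraries for eas to 0.569 for con-10. Without carbon, replicate 1 was 2.87 times the mean of the other libraries for eas and 1.53 times for fl, but 0.296 times for con-6, 0.486 for con-8, 0.633 for con-10 and 0.616 for ccg-1. On Avicel, replicate 1 was 1.84 times the mean of the others for eas, 3.56 for con-6 and 3.28 for con-8, but 0.229 for con-10, 0.383 for ccg-1 and 0.661 for fl. Avicel replicate 1 is the shallow library of its group, and no-carbon replicate 1, with 2251 megabases against 5929 and 6025, is also the shallowest of its own. The part of depth in these differences was not tested.

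Over all 15 libraries, which differ in carbon source, origin and depth, the Pearson correlation of log2(FPKM + 1) was highest between con-10 and ccg-1 (r = 0.979) and between con-6 and con-8 (r = 0.973). It was lowest between fl and con-6 (r = 0.599), and r of fl was highest with eas (r = 0.856). These values describe the 15 libraries and carry no test. Among all tested genes, the profile most like that of fl was al-3 (r = 0.978), which encodes geranylgeranyl diphosphate synthase of the carotenoid pathway that colours conidia. It measured 1639, 659 and 1387 FPKM without carbon and 158 to 170 on sucrose, with the lowest no-carbon value in replicate 2, as for fl. Another of the 5 genes most like fl was acon-3 (r = 0.955), a regulator needed early in conidiophore development. The closest profiles were NCU00026 for eas (r = 0.972), NCU04881 for con-6 (r = 0.980), NCU05819 for con-8 (r = 0.985), rpd (NCU01270) for con-10 (r = 0.991) and NCU08949 for ccg-1 (r = 0.993). NCU05819 was among the 5 closest to con-6 as well (r = 0.978).

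Another 17 genes, not among the 6, moved less uniformly. They were those with a con, ccg or bli symbol or synonym, with cat-1, hsp30 and T added by name. Against no carbon, whose libraries these comparisons share, 5 of 17 fell on pectin and 0 rose, namely con-13, ccg-4, cat-1, bli-3 and bli-4, where 10.9% of all genes were called lower and 10.4% higher. On orange peel 5 fell, those just named, and 0 rose, where 10.7% were lower and 10.4% higher. The median change of the 17 was -0.16 on pectin and -0.12 on orange peel, against -0.12 and -0.14 for all genes. On Avicel 1 of 17, con-13, fell, where 2.33% of all genes did. On sucrose 9 fell and 3 rose, where 34.2% of all genes were called lower and 18.0% higher, with a median of -1.78 against -0.38 for all genes. The 3 that rose, near the share of all genes, were T, the tyrosinase gene, gpd-1 (ccg-7), which encodes glyceraldehyde-3-phosphate dehydrogenase, and cmt (ccg-12), the copper metallothionein gene.

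The gene con-13 is the neighbour of con-10, 1555 bases away with no locus between. It measured 16.4, 26.4 and 43.1 FPKM without carbon, 7.66, 9.25 and 9.63 on Avicel and 3.26 to 4.45 on pectin. Orange peel gave 3.12 and 3.57 FPKM, and con-13 was listed at 0 in the xylan library and in all 3 sucrose libraries. Its log2 change was -2.51 (SE 0.32, adjusted p = 0.000150) on pectin, -2.67 (SE 0.36, adjusted p = 0.000273) on orange peel and -1.49 (SE 0.32, adjusted p = 0.0112) on Avicel, the last lost without no-carbon replicate 3 (adjusted p = 0.0502). The catalase gene cat-1, whose enzyme is abundant in conidia, had medians of 1397 FPKM without carbon, 669 on Avicel, 322 on pectin, 374 on orange peel and 59.3 on sucrose. It changed by -2.40 on pectin (SE 0.56, adjusted p = 0.00617) and by -2.07 on orange peel (SE 0.63, adjusted p = 0.0256), the latter lost without either orange peel library. In these comparisons of pectin and orange peel, the largest changes of the list were those of ccg-4, -5.83 on pectin (SE 0.58, adjusted p = 2.19e-05) and -4.84 on orange peel (SE 0.64, adjusted p = 0.000256). That gene encodes a mating pheromone precursor, and its level on Avicel, 1211 to 3710 FPKM, overlapped the 1034 to 1562 FPKM without carbon. The blue-light-induced genes bli-3 and bli-4 changed by -1.90 and -1.69 on pectin and by -2.62 and -2.36 on orange peel, and their calls on pectin were lost without pectin replicate 3 or no-carbon replicate 3, leaving 3 of the 17 genes lower. On orange peel, leaving out replicate 1 ended the calls of cat-1, bli-3 and bli-4, and 2 of the 17 genes were then lower.

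**Figure D4:**
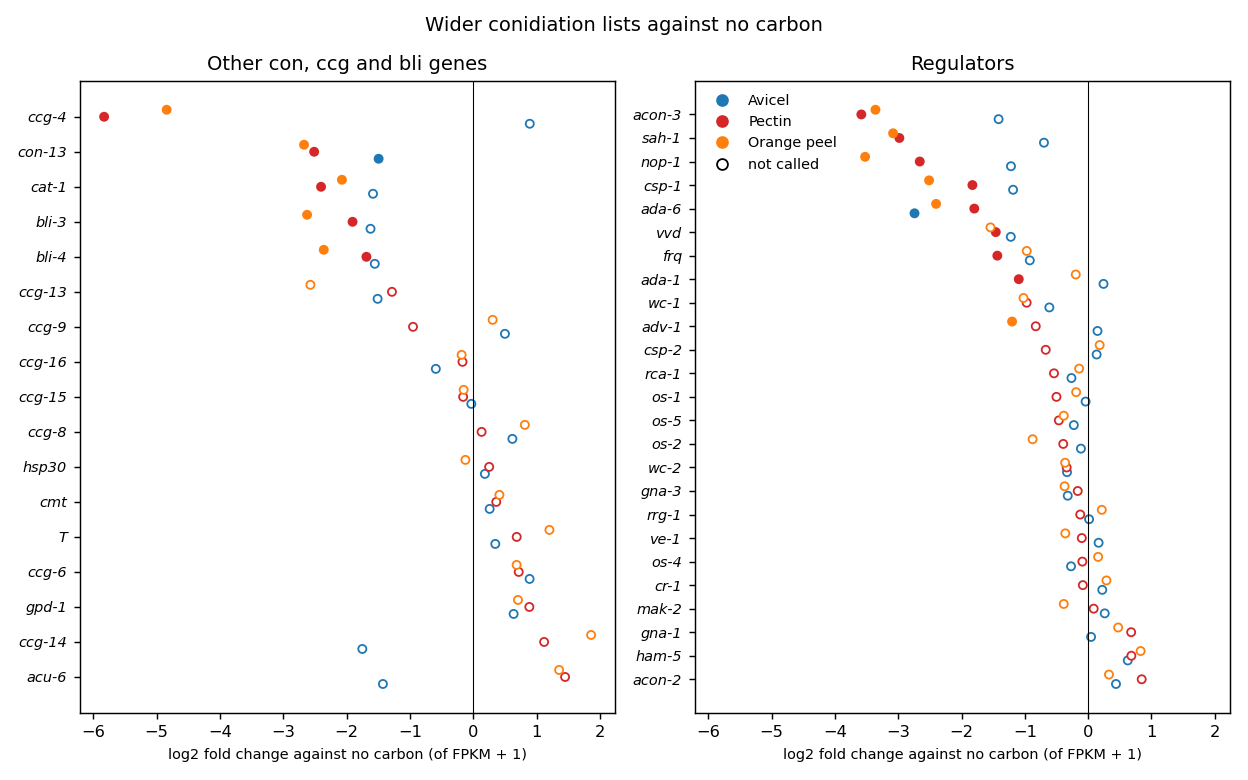
The panels plot the log2 fold change against no carbon on Avicel, pectin and orange peel for the 17 other genes, at left, and for 25 regulators, at right, with filled points for genes that passed limma's test. The largest fall is that of ccg-4 on pectin, at -5.83, and no filled point lies above 0.

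Among 25 regulators of conidiation, light response and the clock, limma called 8 lower on pectin and 6 on orange peel against no carbon, where 10.9% and 10.7% of all genes were called lower. On sucrose 7 of the 25 were lower, a share under the 34.2% of all genes, and on Avicel 1 was, where 2.33% of all genes were. None of the 25 was called higher in these 4 comparisons. Their median change was -0.50 on pectin, -0.37 on orange peel, -0.75 on sucrose and -0.23 on Avicel, against -0.12, -0.14, -0.38 and -0.15 for all genes. Those that fell on pectin were acon-3, sah-1, nop-1, csp-1, ada-6, ada-1, vvd and frq. Those that fell on orange peel were acon-3, sah-1, nop-1, csp-1, ada-6 and adv-1, the last lost without orange peel replicate 1 (adjusted p = 0.0650) or 2 (adjusted p = 0.0937).

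The level of acon-3 was 192, 46.4 and 97.4 FPKM without carbon, 19.8, 47.1 and 46.5 on Avicel, 6.38 to 7.56 on pectin, 7.79 and 9.06 on orange peel and 3.65 to 10.5 on sucrose. It changed by -3.58 on pectin (SE 0.51, adjusted p = 0.000290) and by -3.36 on orange peel (SE 0.57, adjusted p = 0.00120). For sah-1, a zinc finger gene named for the short aerial hyphae of its mutant, levels were 755 to 940 FPKM without carbon and 488 to 547 on Avicel. They were 79.9 to 134 on pectin, 92.1 and 101 on orange peel, 324 on xylan and 93.3 to 122 on sucrose. Its changes were -2.98 on pectin (SE 0.18, adjusted p = 3.88e-07) and -3.08 on orange peel (SE 0.21, adjusted p = 1.36e-06). The opsin gene nop-1 measured 529 to 894 FPKM without carbon, 90.8 to 142 on pectin, 54.5 and 70.6 on orange peel and 0 to 3.87 on sucrose. Its changes were -2.66 on pectin (SE 0.50, adjusted p = 0.00189) and -3.52 on orange peel (SE 0.56, adjusted p = 0.000865).

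The gene csp-1, whose transcription factor is needed for conidia to separate, changed by -1.83 on pectin (SE 0.40, adjusted p = 0.00446) and by -2.51 on orange peel (SE 0.45, adjusted p = 0.00179), from 387 to 1457 FPKM without carbon. The gene ada-6, a zinc cluster factor whose mutant has altered development, was the regulator that fell on Avicel, with a log2 change of -2.74 (SE 0.53, adjusted p = 0.00571). That call was lost with the 2 groups tested alone (adjusted p = 0.0827), and its calls on pectin and orange peel were lost without single libraries of several groups (adjusted p up to 0.0815). The photoreceptor gene vvd was called on pectin at an adjusted p of 0.0463 and lost the call under many alternatives, among them a pseudocount of 0.1 (adjusted p = 0.0535), no filter (adjusted p = 0.0739), the 2 groups alone (adjusted p = 0.110) and leaving out pectin replicate 3 (adjusted p = 0.165), no-carbon replicate 3 (adjusted p = 0.189) or any of several other libraries. The clock gene frq changed by -1.43 on pectin (SE 0.27, adjusted p = 0.00178). Regulators with no call in these 4 comparisons included acon-2, csp-2, rca-1, the white collar genes wc-1 and wc-2 and the osmosensing kinase genes os-2, os-4 and os-5.

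Genes linked to sexual structures and, for the scale, reference genes made up 2 further lists. The summed level of 8 genes linked to sexual structures was 2488 to 3391 FPKM on pectin, 1565 and 1695 on orange peel, 1021 on xylan, 1094 to 1928 on Avicel, 1183 to 4572 without carbon and 666 to 896 on sucrose. The high no-carbon sum came from app, at 3699 FPKM in replicate 2 against 417 and 354. In the pectin libraries asd-1 held 820 to 1178 FPKM, against 24.5 to 32.8 without carbon, and app held 591 to 1360. Above its no-carbon range in every other group, asd-1 held 348 and 418 FPKM on orange peel and 236 to 496 on Avicel. It held 140 FPKM on xylan and 40.6 to 166 on sucrose. The level of pp-1 was 633 to 793 FPKM on pectin and 441 to 553 on sucrose. Whether these sums, or asd-1 and app singly, followed sexual tissue was not tested. The gene poi-2 was listed at 0 in all Avicel libraries, the xylan library, 2 pectin libraries and 1 orange peel library. It held 38.4 FPKM in no-carbon replicate 1. Of the 7 tested against no carbon, asd-1 rose and asd-3, fmf-1 and poi-2 fell on pectin, where 10.4% of all genes were higher and 10.9% lower. On orange peel asd-1 rose and asd-3 fell, where 10.4% of all genes were higher and 10.7% lower. On Avicel 1 rose and 1 fell, where 351 of 8700 genes were higher and 203 lower. On sucrose 1 rose and 2 fell, where 18.0% of all genes were higher and 34.2% lower. The part of these genes in the changes of the 6 genes was not tested. Of 9 reference genes for histones, tubulins, respiration, translation and structure, 0 were called on Avicel, 1, cox-4, was called higher on pectin and on orange peel, where 10.4% of all genes were in each, and 5 were called higher on sucrose, where 18.0% were. On sucrose their summed level was 233643 to 275146 FPKM against 97013 to 106375 without carbon. Under quantile normalization and under equal sums the number called higher on sucrose was 1. Over all 8700 genes these fits called 3957 and 5402, of which 49.6% and 18.4% were higher. Under these alternatives all 6 conidiation genes were again called lower on sucrose, while the number lower on Avicel moved from 0 to 4, and the part of the scale in the changes was not tested.

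The authors' deposited table of pooled values placed all 6 genes in the same cluster, which held 3030 of its 8664 genes (35.0%). For pectin, orange peel and xylan its values were the means of the deposited libraries. For no carbon the authors' deposited table gave 90247 FPKM for eas, 0.773 of the mean of the 3 libraries, and 4566 FPKM for con-6, 1.16 times that mean. Avicel and sucrose departed likewise, with ratios of 0.746 and 0.728 for eas and of 1.22 and 1.24 for con-6. Other ratios were closer to the mean, such as 0.987 for con-8 on Avicel. All comparisons above used the single libraries.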

How the data were processed

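RNA was purified with oligo dT beads, per the labels' protocols. The authors deposited FPKM values for each library, at gene level for 6 libraries and at transcript level for 9, whose tables also hold a coverage signal, per the file headers. Tools listed in the submitters' processing notes are Cufflinks 0.9.3, Cuffdiff and TopHat 1.2.0. The genome build is not given in the sources used here. Gene symbols were taken from RefSeq's table for assembly NC12, which lists 9215 of the 9733 joined loci, and at 863 loci the 2 kinds of table carry different identifiers. Loci were matched by their coordinates, and FPKM of transcripts of a locus were summed.

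The 8700 loci whose mean reached 1 FPKM in the 14 libraries of the 5 replicated groups were tested. Values of log2(FPKM + 1) were fitted over these groups with limma 3.58.1 (R 4.3.3) with a trend in the variance (degrees of freedom 9 residual, 2.94 prior), two-sided, with Benjamini-Hochberg adjustment over all genes, and was tested on simulated data. Because of the added 1 FPKM, fold changes of genes at low level are understated. The xylan library entered no test. Whole reads could not be recovered, and depth is unknown for the 6 gene-level tables. The design text calls the replicates biological, and p-values measure the spread between these libraries.

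The members and lists were chosen with earlier results of these data known. Named genes are the 6 members, up to 4 called genes of each further list with the largest change in a comparison, all called regulators, and the closest of 5 profiles per member. Genes named with values outside this rule, such as the list members beyond 4, were chosen after their values were seen. Alternatives were pseudocounts of 0.1 and 5, quantile and upper-quartile scaling, no filter or one at 5 FPKM, no variance trend, fits of the compared groups alone, a block for the replicate number, joining by identifier, leaving out each library, and leaving out both shallow libraries. Added after seeing the data were equal sums of FPKM times length and values under 10 FPKM set to 10. A search of promoters for motifs was not run, because no sequences were used here.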

Additional observations from a re-analysis of the deposited data

How the results depend on the processing

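Falls of all 6 genes on sucrose against no carbon, and rises of all 6 on Avicel against sucrose, were counted as 6 each time a library was left out. Joining the tables by identifier drops con-8, and quantile normalization left 5 genes higher on Avicel than on sucrose. With 1 library left out, the count of the 6 genes called lower ran from 4 to 6 on pectin and from 4 to 6 on orange peel against no carbon, from 0 to 2 on Avicel, from 0 to 3 on pectin against Avicel and from 1 to 4 on orange peel against Avicel. Higher on orange peel than on sucrose were 4 to 5, and on pectin 5. Of the 17 other genes, the count lower against no carbon ran from 3 to 5 on pectin, 2 to 6 on orange peel, 0 to 3 on Avicel and 9 to 10 on sucrose, with 2 to 3 higher on sucrose, and of the 25 regulators from 6 to 8, 4 to 9, 1 to 4 and 7 to 11, the last value without no-carbon replicate 1. Reference genes higher on sucrose were 5 to 6.

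Lower on Avicel than without carbon were 1 of the 6 genes with a pseudocount of 5, 4 under quantile normalization, 3 without both shallow libraries, 4 under equal sums and 1 with values under 10 FPKM set to 10. Of the 17 genes these counts were 2 (pseudocount 5), 4 (quantile), 0 (the groups alone), 2 (without both shallow libraries) and 4 (equal sums). Of the 25 regulators they were 2 (pseudocount 5), 0 (the groups alone), 2 (without both shallow libraries), 7 (equal sums) and 2 (values set to 10). Lower than on Avicel were 1 gene on pectin and 1 on orange peel with no filter, and 4 and 5 without both shallow libraries. With no filter, 1295 of 9733 genes were called on pectin and 1147 on orange peel, 56.9% and 54.6% of them higher. Without both shallow libraries, 10.8% and 11.5% of all genes were called lower. On sucrose, 18 regulators were lower under equal sums, and 1 reference gene and 1 of the 17 genes were higher under quantile normalization and under equal sums. The cause of these differences was not tested.

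No called change of the 6 genes turned its direction. Among changes that were not called, that of fl became -0.41 on pectin and -0.70 on orange peel against sucrose under quantile normalization, and -0.11 on orange peel without both shallow libraries. That of con-6 became 0.23 on pectin and 0.10 on orange peel against Avicel without them, and that of ccg-1 on orange peel against pectin 0.17 under quantile normalization. With 1 library left out, changes on orange peel against pectin ran from -0.53 to 0.24 for con-6, from -0.70 to 0.11 for ccg-1 and from -0.53 to 0.0189 for fl. Against Avicel those of con-6 ran from -0.77 to 0.23 on pectin and from -0.91 to 0.10 on orange peel, and against sucrose that of fl on orange peel from -0.21 to 0.24.

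Deviations from group means had r from -0.31 to 0.45 in 26 same-numbered pairs (median -0.02, 9 over 0.1). In 52 others the median was 0.02. Deviations cancel within groups, so these medians cannot settle whether numbers pair samples. With the replicate number as a block, limma gave con-6 on pectin against no carbon an adjusted p of 0.0537. It gave con-8 on orange peel against Avicel one of 0.0740.

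Over all genes, calls on Avicel against no carbon were 554, with 332 for the groups alone and 969 under equal sums. Calls on orange peel against pectin were 27, with 160 for the groups alone, 15 with the block, 161 without both shallow libraries, 51 with values set to 10 and 4 to 70 with a library left out. On orange peel, calls were 1249 against Avicel, with 2068 without both shallow libraries and 493 to 1778 with a library left out, and 1838 against no carbon, with 807 to 2132. The share of calls that were higher was 63.4% on Avicel, 34.5% on sucrose, 48.8% on pectin and 49.1% on orange peel against no carbon, and 26.5%, 18.4%, 31.8% and 37.9% under equal sums, which moved the median of all genes to -0.49, -1.08, -0.38 and -0.31.

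Depth limits the sucrose values of con-6, con-8 and con-10, and the single xylan library has no replicate.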
